A study of Mus musculus with 36 samples.

Results

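The ADP-ribosylation-factor-like (ARL) proteins are small GTPases of the ARF family that switch between a GDP-bound and a GTP-bound form and, when bound to GTP, recruit effectors to membranes or release cargo from carriers. Arl16, Arl2, Arl3, Arl6, Arl1, Arl5a, Arl8a and Arl8b, 8 genes with 46 listed introns out of 31667 genes and 219945 introns, were described here across 36 mouse RNA-seq libraries with and without the splicing factor Zrsr2. The genes were chosen from earlier results on these libraries, in which intron 1 of Arl16 and the level of Arl2 had stood out, and their introns were found by matching the tables to the GENCODE M21 annotation of mm10. Retention and level of Arl16 and Arl2 in the genotype and hairpin comparisons are therefore given as description, with no test, and the other 6 genes, with 38 introns, were tested.

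Zrsr2 is known as a factor of the minor spliceosome, which removes the rare U12-type introns, and Zrsr1 is its close relative. A U12-type intron carries a long, highly conserved 5′ splice site and branch point, and it may begin with AT and end with AC in place of GT and AG. A gene with such an intron usually holds 1 of them beside ordinary introns.

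Myeloid progenitors of 3 kinds, the common type (CMP), its granulocyte and monocyte branch (GMP) and its megakaryocyte and erythroid branch (MEP), were sorted from the marrow of Zrsr2-deficient (KO) and wild-type (WT) male littermates, 3 mice a genotype, each mouse giving all 3 cell types. Embryonic fibroblasts (MEF) came from male embryos, 3 libraries a genotype. Lin-Kit+ bone marrow cells, lineage-negative progenitors cultured ex vivo, carried a control hairpin or 1 of 2 hairpins against Zrsr1 (sh1 and sh10), in KO and in WT cells, with 1 library a group from each of 2 experiments. All groups are on the C57BL/6 background. In the labels and the design text, ages, the form of the Zrsr2 allele and whether the Lin-Kit+ experiments used separate animals are not stated, so p-values for the Lin-Kit+ cells measure only the spread between these libraries.

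Libraries held 44083233 to 84832431 spliced reads in the progenitors, 43514139 to 61124920 in the fibroblasts and 30481450 to 43345548 in the Lin-Kit+ cells. Spliced reads of Zrsr2 were 0 to 1.52 counts scaled to 1000000 spliced reads of the library (CPM) in the KO libraries and 19.2 to 34.2 in the WT libraries. Zrsr1 has no listed intron, so its depletion was not measured here. Of the 5 fibroblast markers, the summed level was 56466 to 81675 CPM in the fibroblast libraries and at most 49.0 CPM in the others. The 4 progenitor markers summed to 802 to 1970 CPM in the marrow libraries, but they did not run alike. Ptprc was 522 to 886 CPM in the Lin-Kit+ libraries and at most 368 in the sorted progenitors. Myb was 72.8 to 274 CPM in the Lin-Kit+ libraries and at least 413 in the sorted progenitors. Cd34 was at most 4.59 CPM in MEP. The 3 mature neutrophil markers summed to at least 1008 CPM in the Lin-Kit+ libraries and at most 81.2 in the sorted progenitors.

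Arl16 lies on the minus strand of chromosome 11 (chr11:120464866-120467607, mm10), and its intron 1 is the 122 bases at chr11:120467241-120467362. It is shown whole because the largest genotype difference of the family in progenitors and fibroblasts was measured on it. The sequence was read from an annotated GENCODE M21 transcript that keeps the intron, 5′ to 3′ on the gene's strand. Capitals mark the first 8 bases, the best match to the branch point motif in the last 40 bases, and the last 2 bases.
Arl16 intron 1: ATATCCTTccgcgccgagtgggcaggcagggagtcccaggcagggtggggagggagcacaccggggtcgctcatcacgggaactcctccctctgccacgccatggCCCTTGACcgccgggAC

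The first 8 bases were an exact match to ATATCCTT, 1 of the 2 letter strings searched as the U12 5′ site on the gene's strand (the other was GTATCCTT). The branch point motif searched was TCCTTAAC, and CCCTTGAC in this intron differs from it at 2 bases. An intron was classed as U12-type when its first 8 bases had at most 1 mismatch and its last 40 bases held the branch motif with at most 2. Both ends could be read for 10064 introns of the whole series, of which 67 (0.666%) were U12-type and 49 (0.487%) had an exact 5′ site. Both ends were readable for 6 of the 46 ARL introns, and Arl16 intron 1 was the 1 that was U12-type.

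The ends of the other readable ARL introns are given for comparison, with the first 8 bases, the last 2 bases and any branch-like match in capitals.
Arl16 intron 2, first 20 bases: GTAGGTGTcggcctctctca
Arl16 intron 2, last 40 bases: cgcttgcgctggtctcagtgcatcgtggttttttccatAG
Arl16 intron 3, first 20 bases: GTGAGTTAatacttcaagct
Arl16 intron 3, last 40 bases: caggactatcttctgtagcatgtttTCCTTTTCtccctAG
Arl16 intron 4, first 20 bases: GTATGGGTctaagggctggg
Arl16 intron 4, last 40 bases: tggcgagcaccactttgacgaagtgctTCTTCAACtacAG
Arl2 intron 3, first 20 bases: GTGTGCCCcaggcttccacc
Arl8a intron 4, first 20 bases: GTCAGCTGgagatggagcgg

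Introns 2, 3 and 4 of Arl16 lie at chr11:120466768-120467181, chr11:120466100-120466653 and chr11:120465822-120465983, Arl2 intron 3 at chr19:6136060-6137477 and Arl8a intron 4 at chr1:135154270-135154407. Their first 8 bases had 3 to 5 mismatches to the nearer U12 5′ site, and all 5 began with GT and ended with AG. Introns 3 and 4 of Arl16 held a branch-like match, but neither had the 5′ site, so neither was classed as U12-type. A match of letters is a description of the sequence and not a measured site.

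Arl16 intron 1 was retained more often in Zrsr2-deficient than in wild-type cells of every sorted progenitor type and in fibroblasts, while the other 3 introns of Arl16 showed no such separation across the cell types. Arl16 encodes a distant and little studied member of the family. Retention is the deposited percentage of exon-intron reads out of exon-intron reads plus 2 times the number of reads spliced across the intron. In CMP, retention of intron 1 was 14.7%, 21.6% and 10% in the KO libraries and 7.56%, 6.43% and 1.75% in the WT libraries. In GMP it was 17.6%, 19.4% and 23.0% in KO against 12.4%, 2.04% and 3.51% in WT. In MEP it was 16.9%, 23.3% and 19.8% in KO against 3.13%, 5.39% and 4.42% in WT. The KO and WT libraries did not overlap in any of these 3 cell types. For CMP the KO mean was 15.4% ± 5.83 and the WT mean 5.25% ± 3.08 (SD, n = 3 each). Those of GMP were 19.99% ± 2.72 and 5.99% ± 5.62, and those of MEP 19.998% ± 3.22 and 4.31% ± 1.14. In percentage points the differences were 10.2, 14.0 and 15.7.

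Fibroblasts retained the intron at a higher level in both genotypes. The KO fibroblast libraries gave 35.9%, 44.9% and 51.5%, and the WT libraries 26.6%, 33.7% and 29.4%. The groups did not overlap, with means of 44.1% ± 7.83 and 29.9% ± 3.56 (SD, n = 3 each), a difference of 14.2 percentage points. Every WT fibroblast library was above every KO progenitor library. Fibroblast and progenitor libraries were fitted apart, and that difference was not tested. The 3 macrophage markers summed to 121 to 1142 CPM in the KO and 124 to 1445 CPM in the WT fibroblast libraries, and at most 12.6 CPM in the progenitors, and their part in the level of retention was not tested.

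**Figure D1:**
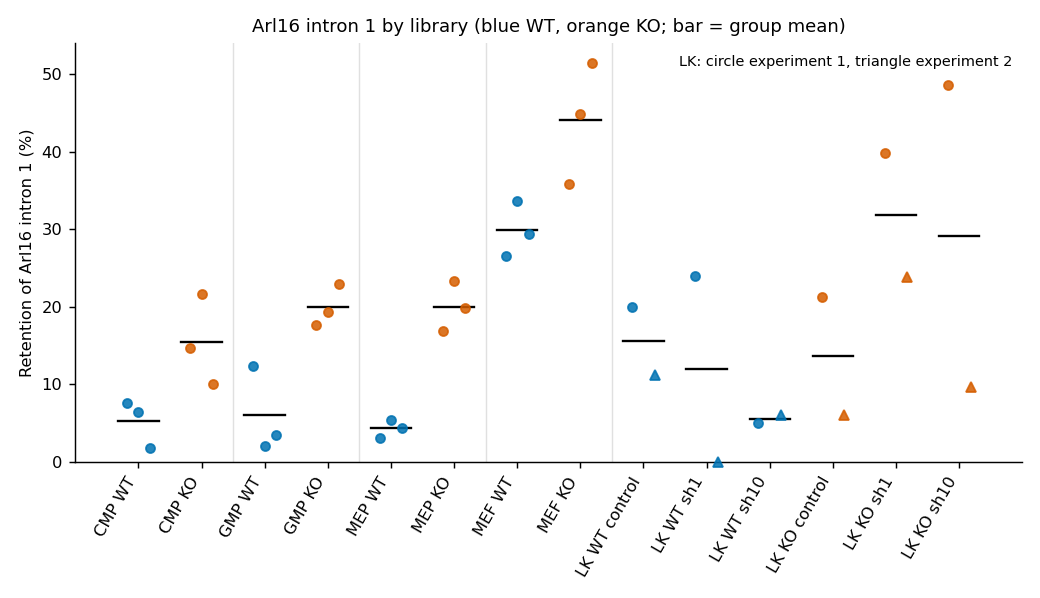
Retention of Arl16 intron 1 (%, y axis) in each library by group (x axis), with WT in blue, KO in orange and a bar at the group mean. For the Lin-Kit+ cells (LK), circles are experiment 1 and triangles experiment 2. KO and WT do not overlap in CMP, GMP, MEP or MEF, whereas the LK groups spread from 0% to 48.6%.

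These percentages rest on few reads. Exon-intron reads at intron 1 numbered 8 to 42 in the KO progenitor libraries, 3 to 19 in the WT progenitor libraries and 64 to 114 in the fibroblasts, beside 36 to 108 spliced reads. Reads from both ends of the intron contributed in every group, and the 5′ end gave 18.5% to 83.3% of a group's exon-intron reads. In every KO progenitor library and every fibroblast library, 100% of the intron was covered.

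The Lin-Kit+ libraries did not repeat a genotype difference with the control hairpin. The libraries of experiment 2 stood apart, with reads at a single end in 24.6% to 31.0% of introns that held 20 or more exon-intron reads, against 7.86% to 12.8% in experiment 1. Intron 1 of Arl16 was covered over 29.5% of its length in the WT library with sh10 and over 0.82% in that with sh1 of experiment 2. In experiments 1 and 2, retention was 21.3% and 6.09% in KO and 20% and 11.2% in WT with the control hairpin, and the groups overlapped. With sh1, KO gave 39.9% and 23.8% against 23.9% and 0% in WT. With sh10, KO gave 48.6% and 9.62% against 5.05% and 6.05% in WT. Within each experiment the KO library was the higher for both Zrsr1 hairpins. Against the control hairpin of the same experiment, retention in KO cells was higher by 3.54 to 27.4 percentage points in all 4 hairpin libraries. In WT cells it differed by -14.9 to 3.93. Each experiment had 1 control library per genotype, shared by both hairpins. Without regard to experiment, the KO hairpin libraries overlapped both the KO controls and the WT hairpin libraries. The share of all introns with the same pattern within experiments was not counted. Experiment 1 was above experiment 2 in 5 of the 6 groups, and the part of coverage in this was not tested. The value of 0% came from a library with 0 exon-intron and 110 spliced reads, which allows a retention of up to 1.35% by counting error alone (3 reads).

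No other intron of Arl16 separated the genotypes without overlap in more than 1 of CMP, GMP, MEP and MEF. Group means were 2.42% to 10.8% for intron 2, 0.47% to 9.85% for intron 3 and 4.05% to 20.6% for intron 4. Intron 4 was higher in KO without overlap in MEP, at 18.5%, 21.4% and 16.7% against 15.96%, 7.48% and 13.3% in WT. In CMP the same intron gave 29.2%, 18.5% and 14.0% in KO against 13.3%, 17.4% and 10.7% in WT, and these overlapped. The genotypes also overlapped at intron 4 in GMP and in MEF. Intron 3 was lower in KO GMP without overlap, at a mean of 3.51% against 6.00%.

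The spliced level of Arl16 did not separate the genotypes in progenitors or fibroblasts. Level is given as spliced reads summed over the gene's introns, in CPM, a scale that serves 1 gene across groups. In CMP it was 6.44, 5.11 and 4.21 CPM in KO and 7.47, 6.19 and 7.07 in WT, a ratio of 0.761 with overlapping libraries. Means were 7.16 and 6.74 CPM in KO and WT GMP, 5.41 and 6.12 in MEP and 9.61 and 9.73 in MEF, all with overlap. With the control hairpin in Lin-Kit+ cells, Arl16 was 10.4 and 7.89 CPM in KO against 5.77 and 6.63 in WT, without overlap. Of 10317 genes, 4.03% were higher in KO there without overlap. The Zrsr1 hairpins in WT cells gave 8.01 to 9.77 CPM, all above the WT controls, as for 6.06% of 10317 genes. In KO cells they gave 7.18 to 9.83 CPM, overlapping the KO controls. In bulk RNA, a change in the mix of cells and a change per cell cannot be told apart.

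Arl2, which binds lipidated cargo carriers and a tubulin-folding cofactor, showed no separation of the genotypes in retention that held across the progenitor types and fibroblasts. Its 4 introns lie on the minus strand of chromosome 19, intron 1 at chr19:6137841-6141036, intron 2 at chr19:6137641-6137729 and intron 4 at chr19:6134802-6135978, with intron 3 as given above. Intron 3 was the most retained, with group means of 5.82% to 18.9%. In KO and WT its means were 14.2% and 14.3% in CMP, 10.6% and 9.16% in GMP, 10.8% and 9.77% in MEP, and 6.46% and 5.82% in MEF, with overlapping libraries in each. Intron 2 was spliced almost completely, with group means of 0% to 0.79%. In the Lin-Kit+ controls, introns 3 and 4 were lower in KO without overlap, where 13.7% of all introns were. Intron 3 gave 7.33% and 4.90% in KO against 11.9% and 8.17% in WT, and intron 4 gave 1.65% and 4.91% against 6.75% and 7.66%. With the Zrsr1 hairpins, intron 4 was instead higher in KO without overlap, as were 0.966% of all introns. With sh1 it gave 7.80% and 8.43% in KO against 1.55% and 0% in WT. With sh10 it gave 6.73% and 6.85% against 6.23% and 6.14%. By 1 end alone that difference was 1.78 or 5.88 percentage points.

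Introns 1 and 4 of Arl2 each separated the genotypes in 1 progenitor type, in opposite directions. Intron 1 was retained at 2.85%, 2.26% and 2.61% in KO GMP and 1.15%, 0.744% and 0.867% in WT GMP. That difference of 1.65 percentage points was 0.853 from the 5′ end alone and 2.40 from the 3′ end alone. Intron 4 was at 2.44%, 3.71% and 4.57% in KO CMP and 4.95%, 6.94% and 5.44% in WT CMP. An end of intron 1 lies in Batf2, a gene on the opposite strand, and no strand is stated for the counting, so reads of the 2 genes cannot be told apart there. The highest single value was 25.1% for intron 1 in the KO library with sh10 of experiment 1, beside 3.68% in experiment 2. All 61 exon-intron reads behind it lay at the 3′ end, so the 5′ end alone gave 0% and the 3′ end alone 40.1%.

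The summed level of Arl2 was lower with the Zrsr1 hairpins in both genotypes, and lower with sh10 than with sh1. With the control hairpin, WT libraries gave 23.7 and 24.4 CPM in experiments 1 and 2 and KO libraries 27.7 and 31.0. With sh1, WT gave 20.9 and 22.5 CPM and KO 18.3 and 20.2. With sh10, WT gave 14.9 and 13.9 CPM and KO 12.7 and 12.1. No hairpin library reached a control library of its genotype, as for 11.5% of 10317 genes lower in WT and 9.35% lower in KO. The mean of the hairpin groups was 0.750 of the control in WT, a log2 difference of -0.42, and 0.540 in KO, a log2 difference of -0.89. With sh1 alone the log2 differences were -0.15 in WT and -0.61 in KO, and with sh10 alone -0.74 and -1.24, so the size depends on the hairpin. The lower level with sh1 in WT was not seen in the median CPM per intron, at 5.66 ± 0.046 with sh1 and 5.59 ± 0.137 with the control (SD, n = 2), while sh10 was at 3.31 ± 0.369. With factors from the trimmed mean of M-values (TMM) the WT difference was -0.30. Whether the hairpin effect differs between genotypes was not tested for Arl2.

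The cultured cells also differed in markers of maturing cells between hairpins, and the part of this in the hairpin results was not tested. The 3 mature neutrophil markers summed to 1008 to 2712 CPM with the control hairpin, 1385 to 3205 with sh1 and 2703 to 12781 with sh10. The 3 macrophage markers summed to 333 to 531 CPM with the control hairpin and 627 to 1436 with the Zrsr1 hairpins. The 4 granulocyte-monocyte markers with a listed intron summed to 3779 to 5041 CPM with the control hairpin and 1103 to 3804 with the Zrsr1 hairpins. The 3 mast cell and basophil markers summed to 5376 to 8909 CPM with the control hairpin, 6507 to 10893 with sh1 and 2479 to 5254 with sh10. For the 5 megakaryocyte-erythroid markers the sums were 791 to 1313 CPM with the control hairpin, 1085 to 1203 with sh1 and 473 to 783 with sh10.

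**Figure D2:**
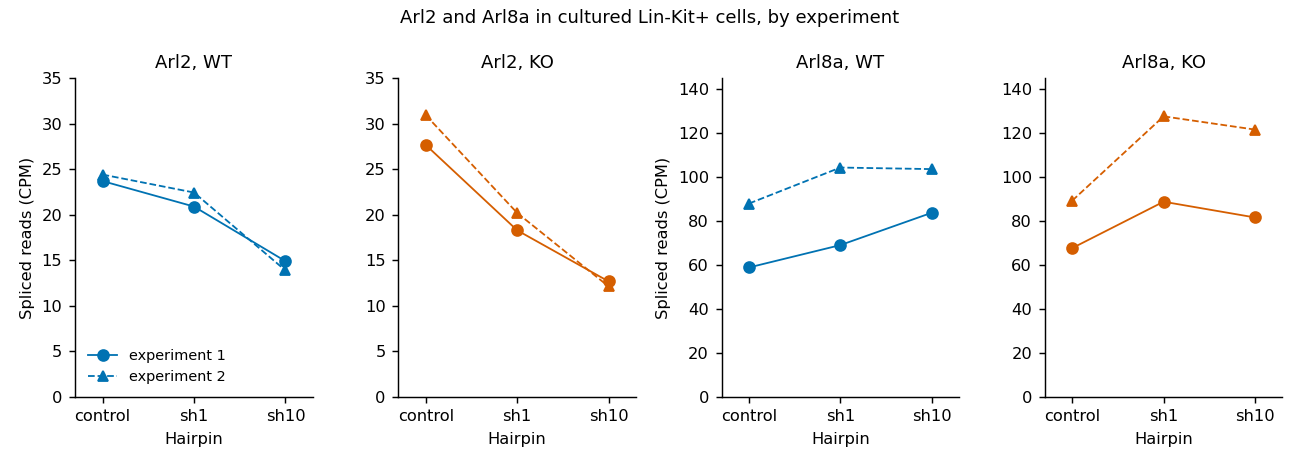
Spliced reads of Arl2 and Arl8a (CPM, y axis) in cultured Lin-Kit+ cells by hairpin (control, sh1 and sh10, x axis), by genotype, with 1 line per experiment. Arl2 is at 23.7 and 24.4 CPM with the control and 14.9 and 13.9 with sh10 in WT, and at 27.7 and 31.0 against 12.7 and 12.1 in KO, and Arl8a lies above its own control in each experiment.

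In progenitors and fibroblasts the Arl2 level was close between genotypes. KO and WT CMP had means of 33.7 and 32.7 CPM, GMP of 37.9 and 40.1, MEP of 39.3 and 38.1, and MEF of 37.6 and 36.3, and the libraries overlapped in each. With the control hairpin in Lin-Kit+ cells, the KO libraries were above the WT libraries without overlap, as for 4.03% of 10317 genes. The log2 difference was 0.28.

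The introns of the other 6 genes showed no genotype difference that passed the test. Introns were tested with edgeR's diffSpliceDGE on exon-intron against spliced reads, with Benjamini-Hochberg adjustment over all introns, and with limma on the log2 ratio of the same reads. Of 38 introns, 24 were deep enough to test in the progenitors, 16 in the fibroblasts and 18 in the Lin-Kit+ cells. In CMP, GMP and MEP 0 of 24 were called by edgeR or limma, where edgeR called 0.0032%, 0.00641% and 0.0048% of all 62446 introns tested. At an unadjusted p under 0.05 edgeR had 3, 1 and 2 of these introns, beside 4.67%, 1.97% and 3.04% of all introns. By limma the counts were the same, beside 6.60%, 2.88% and 4.30% of all introns. In fibroblasts 0 of 16 were called by either tool, 0 of them at an unadjusted p under 0.05, with 0% of all 32573 introns called by edgeR.

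The smallest p in CMP belonged to intron 8 of Arl6, a gene whose protein recruits the BBSome, a coat complex of ciliary membranes. That intron was retained at 3.07%, 9.33% and 4.26% in KO from 4 to 14 exon-intron reads, and at 0% in all 3 WT libraries, which allows up to 1.05% to 1.82%. The log2 ratio of exon-intron to spliced reads was higher by 4.51 ± 1.06 (SE, limma), with an edgeR p of 1.80e-04 and an adjusted p of 0.238. In GMP the smallest p was at intron 5 of Arl1, whose protein recruits tethering golgins to the trans-Golgi (-1.997 on that scale, edgeR adjusted p = 1). In MEP it was at intron 5 of Arl5a, a trans-Golgi GTPase (3.74, edgeR adjusted p = 1), and in MEF at intron 2 of Arl8a (0.60). In WT, Arl6 intron 8 gave 2.27% to 5.19% in GMP and 2.35% to 5.38% in MEP. Arl1 intron 5 was lower in every KO than in every WT library in GMP and in MEF, at 0.0741% to 0.570% against 0.759% to 1.78% in GMP and at 0.0616% to 0.208% against 0.210% to 0.395% in MEF.

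Counted by overlap alone, 2, 5, 4 and 1 of the 46 ARL introns were higher in every KO than in every WT library in CMP, GMP, MEP and MEF. Among the 21 ARL introns with a mean of at least 20 spliced and 5 exon-intron reads in every cell system, the counts were 1, 5, 2 and 1. Of all 28787 introns with such depth, 5.68%, 3.02%, 4.46% and 3.8% were higher in KO without overlap. Arl16 intron 1, for which the gene was picked, was in all 4 counts and was the only ARL intron in more than 1 of them. The others were Arl6 intron 8 in CMP, Arl2 intron 1, Arl3 intron 2, Arl8a intron 1 and Arl8b intron 4 in GMP, and Arl16 intron 4 and introns 1 and 5 of Arl5a in MEP. In the opposite direction the counts of the 46 were 1, 3, 1 and 2, with 3.91%, 4.19%, 3.75% and 5.58% of all introns lower in KO without overlap, and Arl1 intron 5 was in both the GMP and the MEF count.

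**Figure D3:**
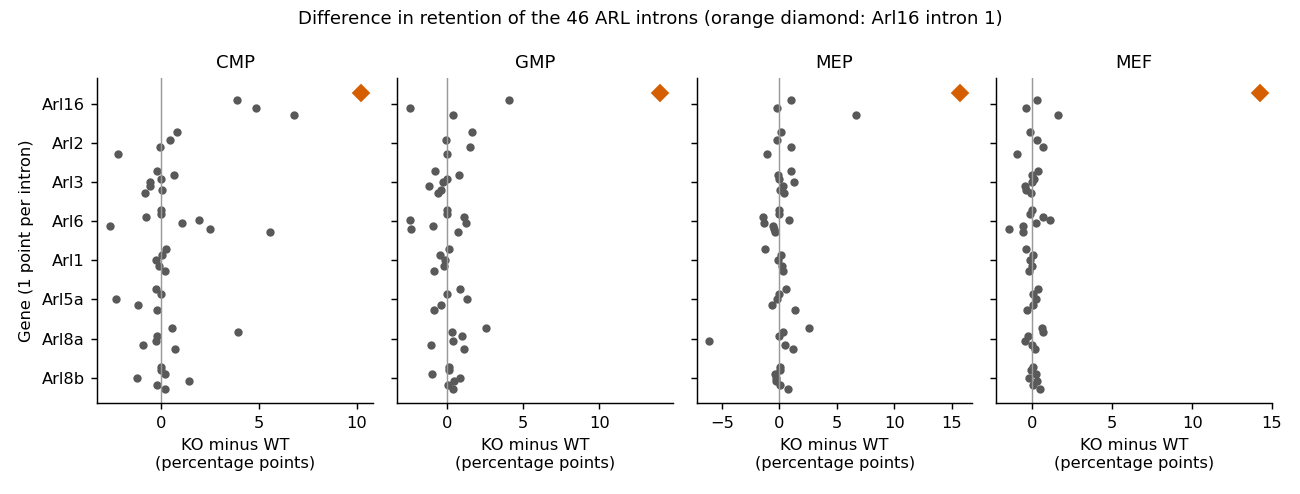
Difference in mean retention, KO minus WT (percentage points, x axis), of each of the 46 ARL introns, grouped by gene (y axis), in CMP, GMP, MEP and MEF. Arl16 intron 1 (orange diamond) is at 10.2, 14.0, 15.7 and 14.2, and the other introns lie nearer to 0 in each panel.

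In the Lin-Kit+ cells 0 of 18 introns were called by edgeR or limma in each of the 5 comparisons, and edgeR called 0% of all 46630 introns there. At an unadjusted p under 0.05 edgeR had 3 for KO against WT with the control hairpin, 0 for the hairpins in WT, 2 for the hairpins in KO, 1 for KO against WT with the hairpins and 0 for the interaction. The shares of all introns at that p were 0.933%, 0.896%, 1.87%, 2.19% and 1.26%. limma had 2, 0, 3, 1 and 0, beside 1.71%, 1.67%, 2.83%, 3.10% and 1.94% of all introns. Introns of Arl8a had the smallest p in 4 of these comparisons, at intron 5 for KO against WT with the control hairpin (-3.23) and for the interaction (2.99), and at intron 3 for the hairpins in WT (0.65) and in KO (2.81). For KO against WT with the hairpins it was Arl6 intron 7 (2.41).

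Some ARL introns share a splice site and cannot be told apart in these tables. Introns 5, 6 and 7 of Arl3, introns 6, 7 and 8 of Arl6 and introns 1 and 2 of Arl8b overlap in this way. Introns of a sharing pair had equal spliced counts in 25 to 36 of the 36 libraries, and each held 45.97% to 54.03% of the pair's spliced reads in every group. The sums of these 3 genes may therefore hold the same reads more than once, and no use of 1 alternative over another was measurable.

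Gene levels of the 6 tested genes did not differ between genotypes by the test. With edgeR's quasi-likelihood test, 0 of 6 were called in CMP, GMP, MEP and MEF, 0 at an unadjusted p under 0.05, and DESeq2 called 0 too. edgeR called 0.0231%, 0.0174% and 0.0463% of all 17279 genes in the 3 progenitor types and 0% of 16419 in fibroblasts. The median log2 difference of the 6 genes was -0.12 in CMP, where all 6 were lower in KO, beside 0.00 over all genes. The medians were -0.04, -0.02 and -0.02 in GMP, MEP and MEF.

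Across the wild-type progenitor types, some of the ARL genes differed, as did 24.6% to 46.2% of all genes. These contrasts took no part in choosing the genes, so all 8 were tested, with edgeR's quasi-likelihood test adjusted over 17279 genes. From CMP to GMP, Arl1, Arl2 and Arl8b rose, and Arl3 and Arl6 fell, 5 of 8 genes where 24.6% of all genes were called. From CMP to MEP, Arl2 rose and Arl8a fell, 2 of 8 beside 46.2%. From GMP to MEP, Arl3 and Arl6 rose, and Arl1, Arl8a and Arl8b fell, 5 of 8 beside 45.4%. Arl16 and Arl5a were not called in any of the 3 contrasts. Cell types of 1 mouse were not paired in this fit, which gave the SE and p-values below. With the mouse as a block, 5, 2 and 5 genes were again called. The lowest edgeR adjusted p of each contrast was then 5.72e-04, 2.31e-04 and 2.93e-04, against 1.09e-04, 3.86e-05 and 5.22e-05 without the block.

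Arl3 and Arl6, both known for their roles at primary cilia, were lowest in GMP. Arl3, whose GTP-bound form releases lipidated cargo from its carriers, was 33.2, 40.1 and 39.04 CPM in WT CMP, 23.3, 20.3 and 19.1 in GMP and 33.4, 28.5 and 27.9 in MEP. The GMP libraries lay below all others, with a log2 difference from CMP of -0.70 ± 0.11 (SE, edgeR adjusted p = 1.09e-04) and of MEP from GMP of 0.52 ± 0.11 (edgeR adjusted p = 0.00062). Arl6 was 11.4, 10.4 and 16.03 CPM in CMP, 6.74, 6.62 and 7.89 in GMP and 10.02, 11.6 and 11.6 in MEP. Its fall from CMP to GMP was -0.69 ± 0.18 (edgeR adjusted p = 0.0079), and without CMP replicate 3 it was -0.49 with an adjusted p of 0.0577.

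Arl8a and Arl8b, which couple lysosomes to kinesin, did not move together. Arl8a was 27.8, 31.8 and 33.3 CPM in WT CMP, 24.3, 28.2 and 30.2 in GMP and 15.8, 16.8 and 13.9 in MEP. MEP libraries were all below the others, at -0.86 ± 0.13 against CMP (edgeR adjusted p = 3.86e-05) and -0.83 ± 0.13 against GMP (edgeR adjusted p = 5.22e-05). Arl8b was 76.9, 75.5 and 80.2 CPM in CMP, 89.2, 86.9 and 93.7 in GMP and 72.9, 69.0 and 72.7 in MEP. It rose by 0.35 ± 0.06 from CMP to GMP and fell by 0.33 ± 0.06 from GMP to MEP (edgeR adjusted p = 0.00049 and 0.0003).

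Arl1 and Arl2 were highest in GMP by mean. For Arl1, WT CMP libraries gave 68.7 to 77.8 CPM, GMP libraries 84.6 to 87.0 and MEP libraries 61.5 to 68.3, with a rise of 0.37 ± 0.06 from CMP to GMP and a fall of 0.41 ± 0.06 from GMP to MEP (edgeR adjusted p = 0.00052 and 5.58e-05). Arl2 was 33.5, 29.9 and 34.9 CPM in CMP, 40.1, 44.9 and 35.2 in GMP and 37.8, 39.9 and 36.5 in MEP. It was higher than in CMP by 0.43 ± 0.10 in GMP and 0.36 ± 0.10 in MEP (edgeR adjusted p = 0.0042 and 0.0070), while GMP and MEP overlapped.

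**Figure D4:**
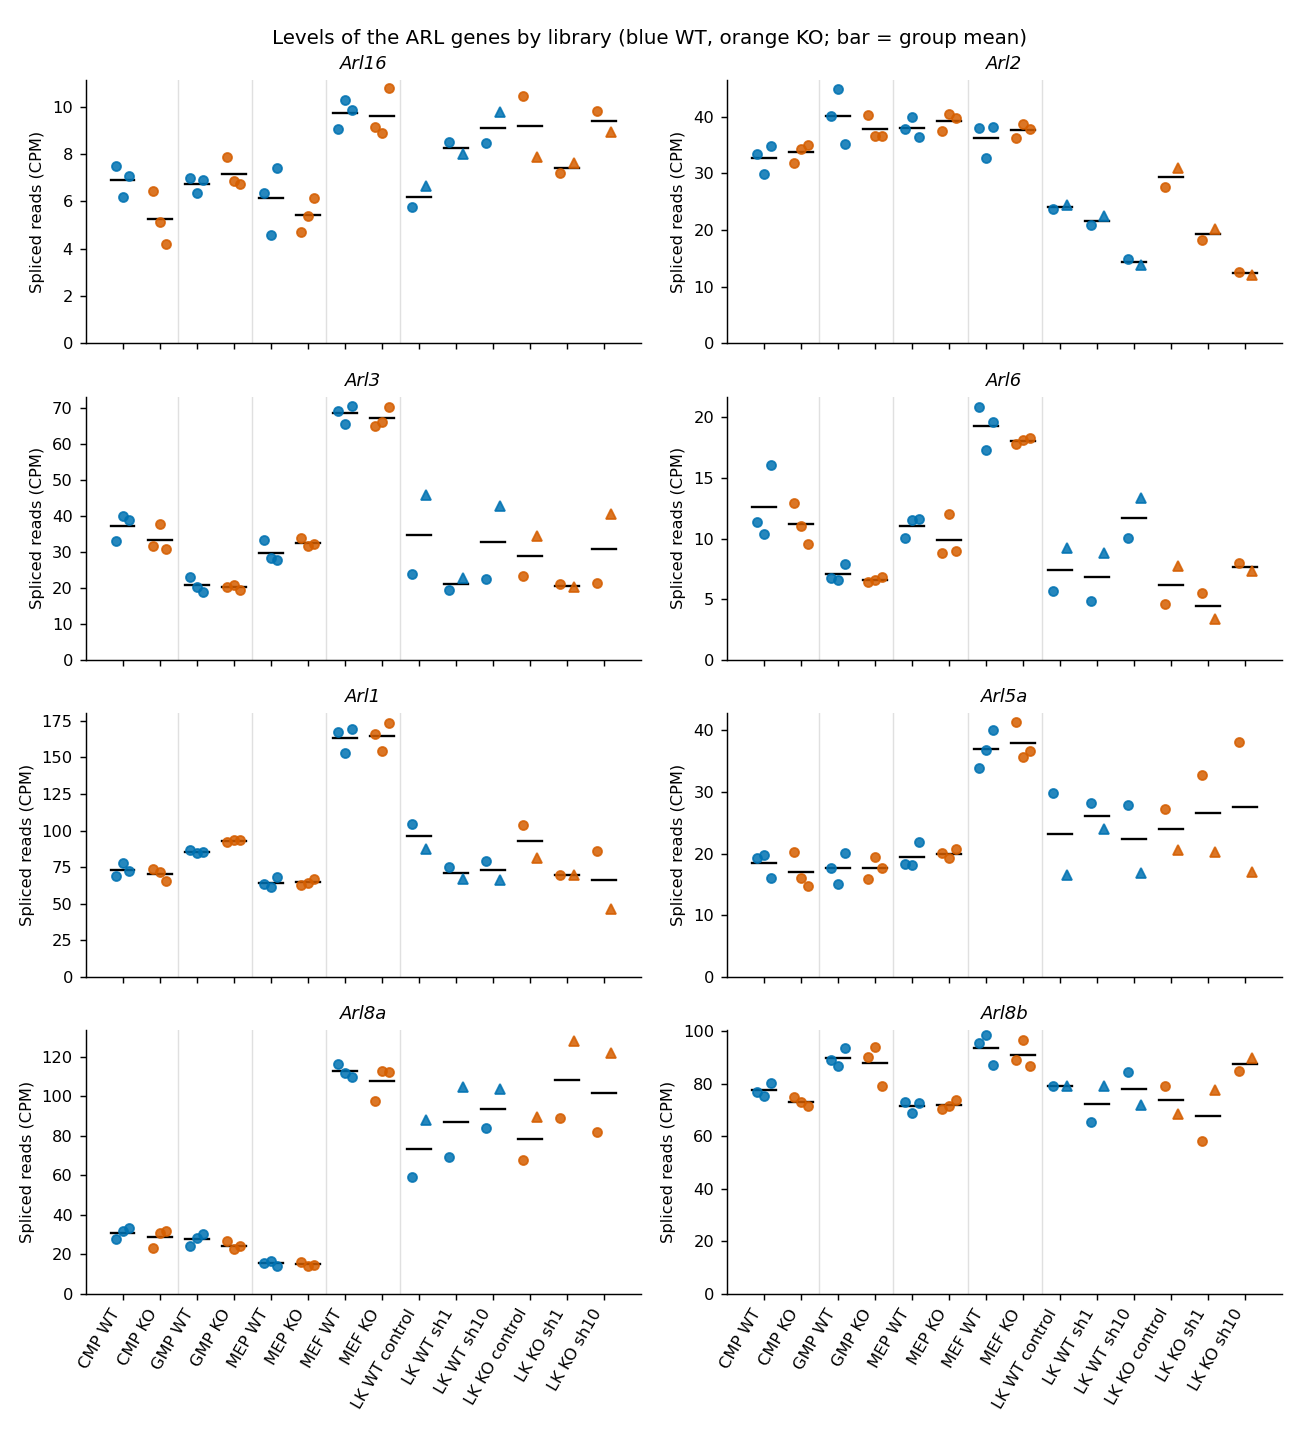
Spliced reads (CPM, y axis) of the 8 ARL genes in each library by group (x axis), WT in blue and KO in orange, with a bar at the group mean. In the Lin-Kit+ (LK) groups circles are experiment 1 and triangles experiment 2. Arl2 is lowest with sh10, Arl8a is lowest in MEP, and the genotypes lie close within CMP, GMP, MEP and MEF.

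The highest group mean was in fibroblasts for 7 of the 8 genes, all but Arl2, in values set beside the marrow cells without a test, because the fits were separate. Means in WT fibroblasts were 163 CPM for Arl1, 68.6 for Arl3, 36.9 for Arl5a and 19.2 for Arl6, against at most 96.1, 37.4, 26.1 and 12.6 in the WT marrow groups. For Arl8a, Arl8b and Arl16, WT fibroblasts were at 112.5, 93.8 and 9.73 CPM. The highest marrow groups of either genotype were close, at 108.3 in KO Lin-Kit+ with sh1, 89.9 in WT GMP and 9.37 in KO Lin-Kit+ with sh10. Among the WT marrow groups Arl8a reached 93.8 and Arl16 9.11, both with sh10. In the sorted progenitors the highest mean of Arl8a was 31.0. The 3 macrophage markers summed to 121 to 1445 CPM over the fibroblast libraries, and their part in these levels was not tested. Between genes only the median spliced CPM per intron of the main transcript can be compared, since each junction is a window of like size. On that scale Arl1 was at 12.4 to 35.01 per group, the highest gene in every group without a Zrsr1 hairpin. With the Zrsr1 hairpins Arl8a was above Arl1, at 17.1 against 12.4 with sh1 and 17.1 against 12.5 with sh10 in KO. In WT the values were 14.5 against 14.1 with sh1 and 15.3 against 14.5 with sh10. Arl16 (1.3 to 2.6) and Arl6 (0.55 to 2.4) were the lowest. Arl8a had a range of 2.4 in MEP to 18.4 in fibroblasts.

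With the Zrsr1 hairpins, Arl8a rose in Lin-Kit+ cells of both genotypes once the experiment was taken into account. In experiments 1 and 2, WT cells had 58.9 and 88.02 CPM with the control hairpin, 69.1 and 104.4 with sh1 and 83.8 and 103.7 with sh10. KO cells had 67.7 and 89.3 CPM with the control hairpin, 88.8 and 127.7 with sh1 and 81.7 and 121.7 with sh10. Experiment 2 was higher in every group, so the groups overlapped, but every hairpin library was above the control of its own experiment. The labels name the experiment, which pairs the libraries. With the experiment as a replicate block, Arl8a was higher by 0.41 ± 0.11 in WT (edgeR adjusted p = 0.0398) and 0.50 ± 0.11 in KO (edgeR adjusted p = 0.0192), the 1 gene of 6 called in each, where 8.65% and 8.91% of all 17498 genes were called. Without the block the differences were 0.41 and 0.52 with edgeR adjusted p = 0.928 and 0.814.

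By single hairpin with the block, Arl8a was called in KO for sh1 (0.53, edgeR adjusted p = 0.0320) and sh10 (0.46, 0.0425) and in WT for sh10 (0.46, 0.0403) but not sh1 (0.37, 0.114). The difference of the hairpin effect between genotypes was 0.08 ± 0.15 with the block (edgeR adjusted p = 1). Arl1 was lower in each of the 8 hairpin libraries than in the control of its experiment, by 20.6 to 29.3 CPM in WT and 12.1 to 35.3 in KO, but did not pass the test with the block (edgeR adjusted p = 0.199 and 0.112). Arl3, Arl5a, Arl6 and Arl8b were above their control in some hairpin libraries and below it in others. Without the block, edgeR and DESeq2 called 0 of 6 genes in each of the 5 Lin-Kit+ comparisons. At an unadjusted p under 0.05 edgeR had 0 and DESeq2 had 1, Arl1 for the hairpins in KO. DESeq2 had 1763 of all 17498 genes at that p there. edgeR then called 0% of all genes.

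The wider family and the known partners of these proteins also held no call between genotypes. The list held 65 genes, of which 57 were tested: 22 other ARF, ARL and SAR genes, 11 partners of Arl2 and Arl3, 13 of Arl8a and Arl8b, 10 of Arl1 and 9 of Arl6. KO against WT called 0 of 57 by edgeR in each of CMP, GMP, MEP, MEF and the Lin-Kit+ controls. At an unadjusted p under 0.05 there were 1, 2, 0, 0 and 0. At that p were 1021, 442 and 776 of all 17279 genes in the progenitor types. In fibroblasts 262 of 16419 were, and in the Lin-Kit+ controls 156 of 17498. Between WT progenitor types, 7 rose and 7 fell from CMP to GMP, 14 and 15 from CMP to MEP, and 12 and 18 from GMP to MEP. These counts of 57 stand beside the 24.6%, 46.2% and 45.4% of all genes called.

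Among the partners of Arl8a and Arl8b, 0 rose and 3 fell from CMP to MEP, of 12 tested, where 46.2% of all genes were called. They were Rufy3, an Arl8 effector (-1.50), Kif1b, a kinesin (-0.82), and Bloc1s2, a subunit of BORC, the complex that brings Arl8 to lysosomes (-0.62). Of 9 tested partners of Arl2 and Arl3, 2 rose and 3 fell from CMP to GMP, beside the 24.6% of all genes called, with a median log2 difference of -0.33. Pde6d, a carrier of prenylated proteins, rose by 1.04, Elmod3 rose by 0.60, and Tbce, a tubulin-folding cofactor, fell by 0.43. In MEP against GMP, Rp2, which stimulates GTP hydrolysis by Arl3, differed by -1.20. With the hairpins and the replicate block, 2 of 57 were called in WT and 6 in KO, beside 8.65% and 8.91% of all genes. Bloc1s2 rose in both genotypes (0.55 in WT and 0.58 in KO), as did Arl5c (0.79 and 0.74). In KO, Plekhm2, which links Arl8 to kinesin (0.68), and Borcs8 (0.44) also rose, and Arf4 (-0.43) and Bbs2 (-0.999) fell. These named genes had an edgeR adjusted p under 0.05. For the hairpins without the block 0 of 57 were called, with 4 in WT and 6 in KO at an unadjusted p under 0.05. Of all 17498 genes, 1303 in WT and 1253 in KO were at that p by edgeR.

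Introns and genes whose values ran most alike with these members are named as a description over the 36 libraries. Intron values were taken less the mean of their cell system. Gene levels were not, so differences between cell systems enter the correlations of level. Of 28766 introns compared with Arl16 intron 1, the highest Pearson correlations were with introns of Vps16 (0.805), Rabggta (0.799), Cdc45 (0.797), Usp21 (0.770) and Tmem161a (0.765). The Usp21 intron was U12-type, with ATATCCTA as its first 8 bases, those of Rabggta and Tmem161a were not, and the ends of the other two were not read. In level, of 7317 genes, 9530068E07Rik (0.824), Cpd (0.800) and Chpf2 (0.800) ran most like Arl16, and Serf1 (0.927), Scap (0.918) and St13 (0.909) most like Arl2. The libraries share their groups and experiments, so these points are not independent.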

How the data were processed

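The 36 libraries were made from polyadenylated RNA. Per the labels, the kit was TruSeq for sorted cells and fibroblasts, and NEBNext Ultra for Lin-Kit+ cells. Per the file headers, the deposited table of each library holds counts of reads at both exon-intron boundaries and of spliced reads, the covered fraction and a retention percent for each intron. The submitters' processing notes name mm10. Which aligner and counter the authors used is not given.

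Introns were matched to GENCODE M21, overlaps were found with bedtools 2.31.1, and intron ends were read from its transcripts. No genome was used, so the ends of most ARL introns were not classed. Spliced counts were summed over introns that belong to 1 gene, so a read across several introns enters several times. Genes were tested with edgeR 4.0.16 (quasi-likelihood, TMM, filterByExpr, Benjamini-Hochberg, threshold 0.05) in R 4.3.3, introns with its diffSpliceDGE, and sizes came from limma 3.58.1 on log2((exon-intron + 0.5) / (spliced + 0.5)). The 18 progenitor, 6 fibroblast and 12 Lin-Kit+ libraries had a fit each, and sh1 and sh10 were averaged against the control hairpin. On simulated data diffSpliceDGE was liberal and limma was not, so both are given. Alternatives were DESeq2 1.42.0, other filters and scalings, either intron end, each library left out, and a replicate block.

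The labels name the experiment of each Lin-Kit+ library, and deviations from group means correlated at 0.643 to 0.736 within experiments. With 2 libraries a group, the deviations of a group are equal and opposite in sign. The correlation of any pair of groups is therefore the same in both experiments and has the opposite sign between them. WT cell types of 1 mouse share the animal, and their deviations correlated at 0.043 to 0.209. KO and WT numbers correlated at 0.153 to 0.170 in CMP and 0.184 to 0.299 in MEP, at -0.01 to 0.234 in GMP and at -0.336 to 0.732 in MEF.

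The members, gene lists and tests were chosen with earlier results of these data known. Named introns were Arl16 intron 1, those of Arl2 and, in each comparison, the tested intron of the other genes with the smallest p. Named list genes were the 3 called with the smallest p in a list and comparison.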

Additional observations from a re-analysis of the deposited data

How the results depend on the processing

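Of 86 alternatives for the retention differences of Arl16 intron 1, those in percentage points all moved them by less than the spread between libraries. They used either end, left out a library, kept 1 hairpin or stayed within 1 experiment. The others took the log2 ratio of exon-intron to spliced reads, where only the sign was compared, and the sign was the same. Leaving out 1 library gave 7.11 to 12.9 percentage points in CMP, 12.03 to 17.2 in GMP, 14.0 to 17.2 in MEP and 10.5 to 18.3 in MEF, and -9.52 to 5.65 for KO against WT with the control hairpin, so the sign there rests on the experiment. The count of ARL introns called stayed at 0 in all 115 alternatives. The count of ARL genes called was within 1.5 times in 155 of 160 alternatives. The other 5 were the replicate block, which gave 1 for the hairpins in WT and 1 in KO, sh10 only with the replicate block (1 in each genotype), and sh1 only with the replicate block (1 in KO). That gene was Arl8a. The block changed no other call, with 5, 2 and 5 genes called between WT cell types as without it. Leaving out 1 library gave 4 to 5 genes from CMP to GMP.

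Of 256 alternatives for the Arl2 introns, 20 moved the difference by more than the spread, most of them by the use of 1 end. From the 5′ and the 3′ end, intron 3 with the hairpins in WT differed by 9.67 and 0.482 percentage points, and intron 1 in MEF by 0.600 and -0.879. The summed Arl2 hairpin difference kept its sign in these alternatives, at -0.30 with TMM factors, -0.15 with sh1 only and -0.74 with sh10 only in WT, and at -0.61 with sh1 only and -1.24 with sh10 only in KO. Why the hairpins differ was not tested. Leaving out 1 library gave -0.45 to -0.39 in WT and -0.97 to -0.81 in KO. With 36 to 110 spliced reads at Arl16 intron 1, depth limits each library's percentage.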
